A study of Mus musculus with 14 samples.

Results

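The 10 genes described here are the interleukin-1 (IL-1) ligands Il1a and Il1b, the related cytokine Il18, the receptor antagonist Il1rn, the receptors Il1r1 and Il1r2, the inflammasome genes Nlrp3, Pycard and Casp1, and Acod1. They were matched by gene symbol, and all 10 were found among the 56953 genes of the BaCl2 table and the 14330 genes of the glycerol table. They were picked in part because Acod1, Nlrp3, Il1a and Il1b were higher in SMA libraries, so their differences between SMA and wild type (WT) are given below as descriptions, with no test. IL-1 alpha and IL-1 beta act through the receptor encoded by Il1r1, Il1r2 encodes a decoy that binds the ligand without signalling, and the antagonist encoded by Il1rn competes for the signalling receptor. IL-1 beta and IL-18 are made as inactive precursors that caspase-1 (Casp1) cleaves once NLRP3 and the adaptor ASC (Pycard) have assembled into an inflammasome. Acod1 encodes the enzyme that makes itaconate, a metabolite of activated macrophages that inhibits succinate dehydrogenase. In injured muscle these cytokines are known chiefly as products of infiltrating myeloid cells, while stromal cells respond to them.

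Fibro-adipogenic progenitors (FAPs), the mesenchymal stromal cells of skeletal muscle, were taken from the tibialis anterior (TA) muscle of mice 3 days after injury by magnetic sorting (MACS) and lysed fresh. Muscles had been injected with BaCl2 (3 SMA and 3 WT libraries) or glycerol (4 SMA and 4 WT libraries). SMA is read here as spinal muscular atrophy, and the labels give neither its allele, the strain, the age of the mice nor the antibodies of the sort. The injury is also the batch in the labels, so a difference between injuries cannot be told apart from one between batches. Nothing in the labels says that replicates are separate animals, so the p-values below cover only the variation among these libraries, part or all of which may be technical.

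The label FAP was checked against marker genes. Pdgfra, the receptor that defines FAPs, was at 714 to 1015 TMM-scaled counts per M (CPM; M is mega) in the BaCl2 libraries of SMA muscle and averaged 895 ± 63.8 CPM (SD, n = 3) in WT. The 15 FAP markers summed to 41332 to 54516 CPM in SMA and 61408 to 68023 CPM in WT after BaCl2. After glycerol they summed to 3332350 to 4220659 and 3311333 to 4695878 normalized counts. After BaCl2 0 were higher, 4 lower and 11 did not pass by edgeR (median log2 fold change -0.23). After glycerol 0 passed by limma (median 0.17). Transcripts of macrophages were present as well: the 22 macrophage and monocyte markers summed to 2455 to 3637 CPM in SMA and 1356 to 1878 CPM in WT libraries after BaCl2, and to 148196 to 356774 and 126501 to 161063 normalized counts after glycerol. Of those 22 markers, 19 were higher, 0 lower and 3 did not pass after BaCl2 (edgeR adjusted p under 0.05, median log2 fold change 0.93), and 8 were higher, 0 lower and 14 did not pass after glycerol (limma, median 1.01). Csf1r, the receptor for the macrophage growth factor, rose by 0.84 after BaCl2 (SE 0.14, edgeR adjusted p = 0.0123) and by 1.06 after glycerol (SE 0.23, limma adjusted p = 0.0456), and Adgre1, which encodes F4/80, rose by 0.98 after BaCl2 (adjusted p = 0.00636) and stood at 0.98 after glycerol (adjusted p = 0.0686). Of the neutrophil markers Ltf, Ly6g, Ngp and Retnlg were under 0.1 CPM in every BaCl2 library and are not listed after glycerol. Of the other 8 neutrophil markers 2 were higher, 1 lower and 5 did not pass after BaCl2, and 1 was higher and 7 did not pass after glycerol; the whole list summed to 64.5 to 83.0 CPM in SMA and 74.3 to 87.0 CPM in WT after BaCl2, and to 4744 to 6644 and 3977 to 4806 normalized counts after glycerol. They include Csf3r, which monocytes also express and which rose by 1.16 and 1.21 (adjusted p = 0.00604 and 0.0307), and S100a8 (1.57, adjusted p = 0.136 and 0.28, adjusted p = 0.736). Of the 11 lymphocyte markers the T and natural killer cell genes Cd3d, Cd3g, Cd8a and Ncr1 were at 0 in every BaCl2 library, and 4 were tested in each injury, of which Il7r was higher after BaCl2 (1.13, edgeR adjusted p = 0.0166) and Cd4 after glycerol (1.29, limma adjusted p = 0.0286). Of the Schwann cell markers 4 of 7 tested were higher and 0 lower after BaCl2 (median 1.06), summing to 29.1 to 34.2 CPM in SMA and 14.2 to 19.9 CPM in WT, and 0 of 6 passed after glycerol by limma (3 at an unadjusted p under 0.05). Of the 10 endothelial markers 0 passed after BaCl2 by edgeR (2 unadjusted, 0 by DESeq2), and 0 were higher and 4 lower after glycerol (median -0.91), summing to 8531 to 11134 normalized counts in SMA and 14292 to 20898 in WT. Of 6 dendritic cell markers tested after BaCl2, Itgax was higher (0.84, edgeR adjusted p = 0.034) and 5 did not pass, with 3 of the 6 above 0. Of 6 satellite cell and myoblast markers tested after BaCl2, Des (-0.74, edgeR adjusted p = 0.00597) and Vcam1, which FAPs also express, were lower. The other 4 did not pass and were above 0 (list median 0.18). After glycerol 0 of either list passed by limma. The part of these cell types in the members' differences was not tested. Total counts after BaCl2 ranged from 97.7 M to 136 M, with 229 to 887 counts of Il1a, the member with the lowest count in any 1 library; the depth behind the glycerol values is unknown. SMA library 3 of the glycerol set stands apart from the other SMA libraries: its macrophage marker level was 0.17 above the WT mean on the log2 scale, against 0.92 to 1.43 in the others.

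The start regions of 4 members are shown because 3 of them, Il1b, Il1a and Acod1, carry the sequence TATAAA at the same place, and because Nlrp3 differs. Each is the 250 bases before the gene's first listed start (RefSeq, GRCm38.p6), written 5′ to 3′ on the strand of the gene. Capitals mark TATAAA (the TATA box motif), the letters GAGGAA (a core that PU.1, the myeloid transcription factor, can bind) and matches to the consensus of NF-kB.
Il1b, chr2:129371140-129371389, minus strand: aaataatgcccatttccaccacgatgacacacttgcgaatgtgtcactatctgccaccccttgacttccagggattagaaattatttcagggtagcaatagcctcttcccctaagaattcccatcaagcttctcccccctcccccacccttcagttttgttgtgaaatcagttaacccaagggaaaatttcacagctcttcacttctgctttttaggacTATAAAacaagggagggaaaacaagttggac
Il1a, chr2:129309973-129310222, minus strand: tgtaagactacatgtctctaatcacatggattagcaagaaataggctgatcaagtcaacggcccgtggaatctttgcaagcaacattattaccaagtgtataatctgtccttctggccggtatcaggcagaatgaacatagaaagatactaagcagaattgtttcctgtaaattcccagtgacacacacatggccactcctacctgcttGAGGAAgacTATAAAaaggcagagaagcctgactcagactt
Acod1, chr14:103046762-103047011, plus strand: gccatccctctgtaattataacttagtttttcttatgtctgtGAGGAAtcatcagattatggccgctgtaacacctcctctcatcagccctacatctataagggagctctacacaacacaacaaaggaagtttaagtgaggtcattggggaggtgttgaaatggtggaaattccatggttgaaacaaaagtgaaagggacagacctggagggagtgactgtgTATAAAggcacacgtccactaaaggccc
Nlrp3, chr11:59541319-59541568, plus strand: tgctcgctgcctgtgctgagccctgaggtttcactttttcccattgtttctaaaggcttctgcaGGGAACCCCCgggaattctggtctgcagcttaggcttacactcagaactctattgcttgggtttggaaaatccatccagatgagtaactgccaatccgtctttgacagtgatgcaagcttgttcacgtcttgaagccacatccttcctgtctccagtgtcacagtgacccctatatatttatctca
Counting back from the start, TATAAA lies at -31 to -26 in Il1b, at -32 to -27 in Il1a and at -28 to -23 in Acod1, on the strand of the gene in each. Among the 32841 start regions of the same length in the table, 628 (1.91%) hold TATAAA on the gene's strand within 20 to 40 bases before the start, and 12.4% hold it anywhere on either strand. None of the start regions tabled for the other 7 members has it in that window. Nlrp3 has an NF-kB consensus match at -186 to -177, one site that reads as a match on both strands; 7.25% of all start regions have such a match. GAGGAA, on either strand, is in 23.3% of all start regions, and its sites in Il1a and Acod1 lie on the strand of the gene. The second tabled start of Nlrp3 has 3 GAGGAA matches and no NF-kB match. Also searched on both strands were TTGCNNAA, the C/EBP site, found in 9.57% of all start regions, and TGANTCA, the AP-1 site, found in 6.75%; Il1a has TGANTCA at -12 to -6 and Il1rn at -141 to -135. TTGCNNAA is at -133 to -126 of the first tabled start of Il1r1 and at -142 to -135 in Pycard. The second tabled start of Il1r1 has an NF-kB match at -232 to -223. On the strand opposite to the gene, GAGGAA is at -108 to -103 in Casp1 and at -42 to -37 in Pycard. Il18 has TATAAA at -175 to -170, also on the opposite strand. These are matches of letters, and binding was not measured.

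After BaCl2, the ligand genes Il1a and Il1b and the antagonist gene Il1rn were higher in every SMA library than in any WT library. Il1a, which encodes the cytokine released from dying cells as an alarm signal, was at 7.58, 6.53 and 5.58 CPM in SMA libraries 1 to 3 and at 2.40, 2.07 and 1.73 CPM in WT libraries 1 to 3. The genotypes were far apart, and the SMA mean was 3.18 times that of WT (log2 fold change 1.67, SE 0.17). Il1b, whose product is the main secreted IL-1 of macrophages, was at 97.1, 100.1 and 82.6 CPM in SMA and 59.5, 31.8 and 36.6 CPM in WT. WT library 1 was the high one of its group and still lay below each SMA library (2.19 times the WT mean, log2 fold change 1.13, SE 0.19). Il1rn was at 89.2, 83.2 and 63.0 CPM in SMA and 49.2, 38.5 and 27.9 CPM in WT (2.04 times, log2 fold change 1.03, SE 0.19). Ligand and antagonist transcripts differed by similar amounts: Il1b over Il1rn in the same library was 1.09 to 1.31 in SMA and 0.826 to 1.31 in WT, and the genotypes overlapped. Il1b over Il1a was lower in SMA, at 12.8 to 15.3 against 15.4 to 24.7 in WT, with the closest libraries of the genotypes nearly touching. Il18, the cytokine that shares the caspase-1 route with Il1b, did not share this pattern. It was at 5.91, 4.63 and 5.53 CPM in SMA and 5.63, 6.44 and 5.23 CPM in WT (log2 fold change -0.11, SE 0.13), with overlap.

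Of the receptors, Il1r1 was the highest member and differed little. It was at 812, 813 and 747 CPM in SMA and 836, 923 and 942 CPM in WT after BaCl2, each SMA library below each WT library, by 0.878 times in the mean (log2 fold change -0.19, SE 0.07). The decoy receptor Il1r2 was at 7.08, 5.67 and 5.20 CPM in SMA and 4.74, 4.80 and 5.40 CPM in WT (log2 fold change 0.26, SE 0.14), with overlap. Signalling receptor transcript was thus far above decoy transcript in both genotypes, and Il1r1 over Il1r2 was lower in SMA, at 115 to 144 against 174 to 192.

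The inflammasome genes had unequal differences. Nlrp3, the sensor, was at 100.1, 97.2 and 69.8 CPM in SMA and 36.1, 28.3 and 28.4 CPM in WT libraries after BaCl2, or 2.88 times the WT mean (log2 fold change 1.52, SE 0.14). Casp1, the protease, was at 11.4, 9.82 and 10.1 CPM in SMA and 8.70, 8.17 and 7.83 CPM in WT. Its SMA libraries also lay above all WT libraries, by a smaller amount (1.27 times, log2 fold change 0.34, SE 0.10). Pycard, the adaptor between sensor and protease, was at 4.95, 4.51 and 3.63 CPM in SMA and 3.69, 3.40 and 4.01 CPM in WT, with overlap (log2 fold change 0.24, SE 0.15). Within a library, Nlrp3 over Pycard was 19.2 to 21.5 in SMA and 7.08 to 9.78 in WT, and Nlrp3 over Casp1 was 6.92 to 9.90 against 3.46 to 4.15. After glycerol both ratios overlapped between genotypes. Nlrp3 was among the members picked for a rise in SMA, and Casp1 and Pycard were not.

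Acod1 showed the widest gap of the 10 after BaCl2. It was at 14, 12.9 and 9.30 CPM in SMA and 3.09, 3.35 and 3.44 CPM in WT, where the 3 WT libraries lay close together (SD 0.179 CPM). The mean was 3.66 times that of WT (log2 fold change 1.87, SE 0.15), and SMA library 3 was the lowest SMA library, as it was for Il1a, Il1b, Il1rn and Nlrp3.

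Glycerol gave a smaller gap for Nlrp3 and Acod1 and a similar one for Il1b. The values here are the authors' normalized counts, so levels cannot be set against the CPM values. Il1b was at 3183, 3731, 2082 and 3935 in SMA libraries 1 to 4 and 1513, 1200, 1144 and 1405 in WT libraries 1 to 4, with no overlap (2.46 times, log2 fold change 1.26, SE 0.19). Il1rn was at 5043, 6701, 3245 and 6153 in SMA and 3014, 2782, 2690 and 2985 in WT, again with no overlap (1.84 times, log2 fold change 0.83, SE 0.20). SMA library 3 was the lowest of its group in both. Il1a was at 635, 794, 207 and 636 in SMA and 294, 203, 148 and 280 in WT (log2 fold change 1.18, SE 0.41). SMA library 3 fell among the WT libraries, and the other 3 SMA libraries lay above all of them.

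Nlrp3 after glycerol was at 4652, 5836, 3051 and 6371 in SMA and 3501, 2324, 2400 and 3113 in WT (1.76 times, log2 fold change 0.78, SE 0.23). SMA library 3 lay within the WT range here as well. Acod1 was at 953, 833, 725 and 874 in SMA and 493, 377, 419 and 735 in WT (1.67 times, log2 fold change 0.78, SE 0.19). For Acod1 the overlap came from WT library 4, the high one of its group, which exceeded only SMA library 3. Casp1 was at 948, 1289, 776 and 1369 in SMA and 729, 821, 824 and 955 in WT (log2 fold change 0.37, SE 0.18), and Pycard at 805, 1040, 970 and 1117 against 667, 1070, 923 and 700 (log2 fold change 0.24, SE 0.16). Both overlapped. Il18 was at 575, 584, 709 and 660 in SMA and 359, 557, 482 and 468 in WT, and here each SMA library lay above each WT library (log2 fold change 0.45, SE 0.14). Il1r1 was at 47463, 44134, 60413 and 42743 in SMA and 53753, 55038, 54589 and 56644 in WT (log2 fold change -0.19, SE 0.10). Its SMA library 3 was above all WT libraries and the other 3 were below them. Il1r2 was at 271, 242, 381 and 271 in SMA and 264, 307, 247 and 312 in WT, with overlap (log2 fold change 0.03, SE 0.16).

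**Figure D1:**
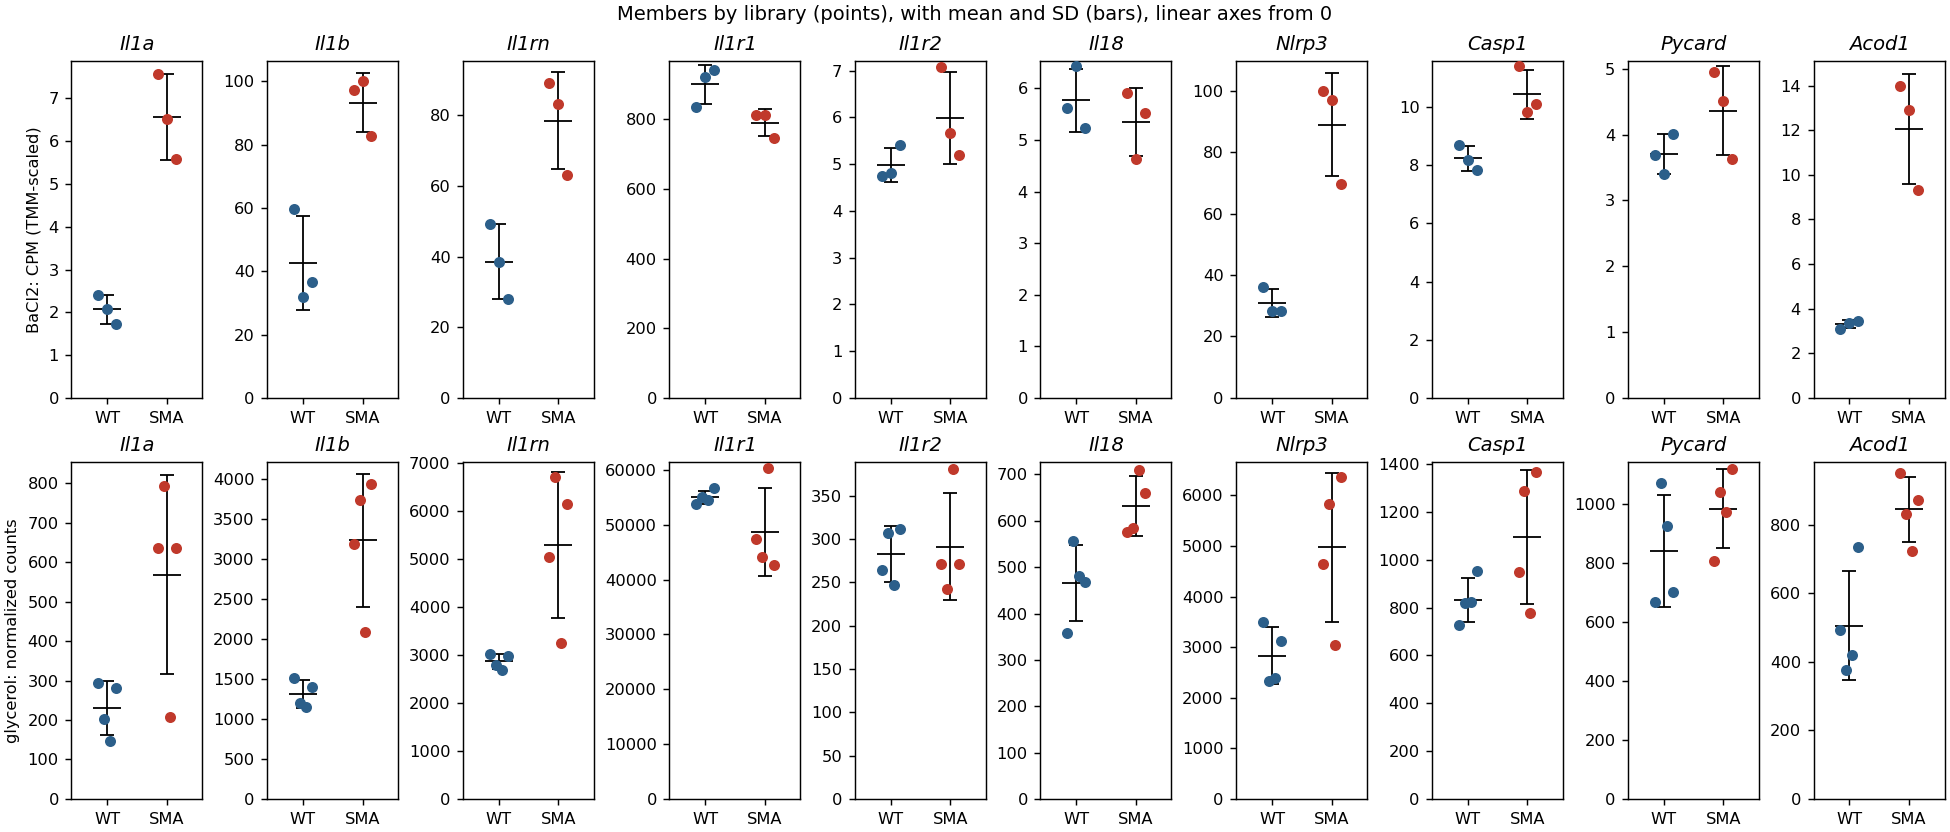
Levels of the 10 members in each library: CPM after BaCl2 (upper row) and the authors' normalized counts after glycerol (lower row), on linear axes from 0. Points are libraries, long bars the mean and whiskers the SD. For Acod1 after BaCl2 the 3 SMA libraries sit at 9.30 to 14 CPM and the 3 WT libraries at 3.09 to 3.44 CPM, and SMA library 3 after glycerol is the low SMA point of Il1a (207) and Nlrp3 (3051).

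One further contrast appeared in the glycerol libraries: Il1b over Il1rn was 0.557 to 0.641 in SMA and 0.425 to 0.502 in WT, with no overlap, whereas after BaCl2 this ratio overlapped. Il1b over Il1a and Il1r1 over Il1r2 overlapped between genotypes after glycerol.

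Counted over the 10 members, 8 log2 fold changes were above 0 and 2 below after BaCl2, with a median of 0.68 against 0.00 over the 20119 genes fitted. All 10 passed the filter on low counts. In that fit 5 members (Il1a, Il1b, Il1rn, Nlrp3 and Acod1) were called higher and 0 lower, where 2.73% of all genes were called higher and 1.56% lower. For 6 members every SMA library was above every WT library, and for 1 (Il1r1) below, which holds for 12.2% and 13.1% of all genes. After glycerol 9 were above 0 and 1 below, the median was 0.61 against 0.00 over 14330 genes, and 1 member (Il1b) was called higher and 0 lower, where 1.7% and 1.17% of all genes were. In 3 members (Il1b, Il1rn and Il18) every SMA library was above every WT library, and in 0 below, as in 6.59% and 7.54% of all genes. The members were picked on these contrasts, so their counts are printed beside those shares without being read as a result. Which members pass rests on single libraries: after BaCl2 3 passed when any of SMA library 2, WT library 2 and WT library 3 was left out. After glycerol 7 passed when SMA library 3 was left out, 2 when WT library 4 was, and 0 in each of the other 6 cases.

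The fold changes of the 2 injuries were set side by side with the SE of their difference. Glycerol minus BaCl2 was -1.09 (SE 0.25) for Acod1 and -0.75 (SE 0.27) for Nlrp3, whose genotype gaps were wider after BaCl2, and 0.56 (SE 0.19) for Il18, whose gap was wider after glycerol. It was -0.48 (SE 0.44) for Il1a, -0.20 (SE 0.27) for Il1rn, 0.14 (SE 0.27) for Il1b and -0.24 (SE 0.21) for Il1r2, and it was 0.00 for Il1r1, 0.02 for Casp1 and 0.01 for Pycard. No p is given, as the members were chosen on both contrasts. Without SMA library 3 the glycerol fold changes were 1.61 for Il1a, 1.46 for Il1b, 1.05 for Il1rn and 1.0 for Nlrp3. Leaving out any 1 library kept the sign of every member's fold change in both injuries except Il1r2 after glycerol, which ranged from -0.11 to 0.11.

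**Figure D2:**
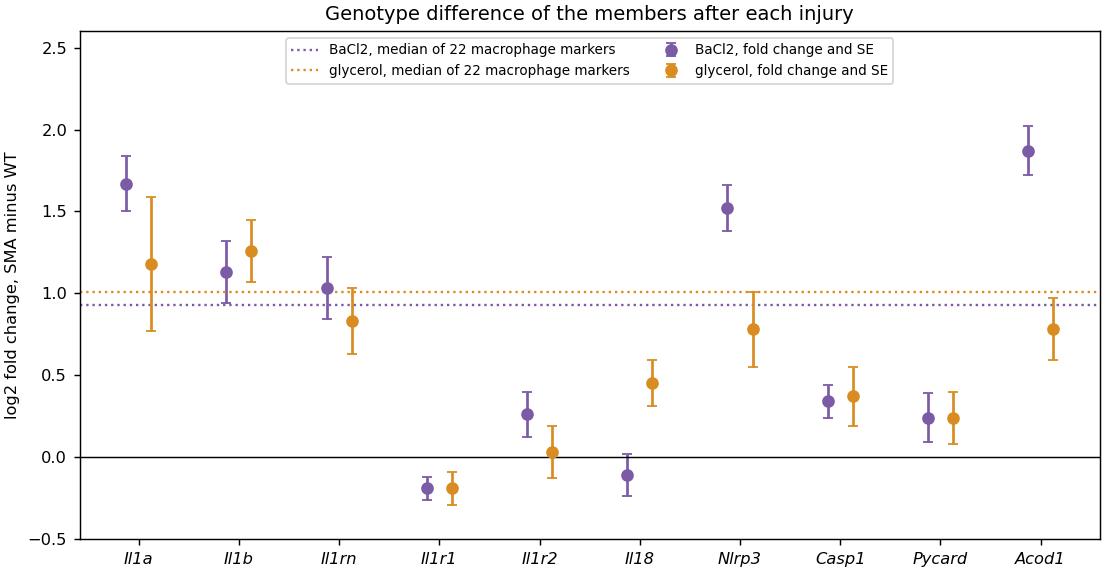
Log2 fold change, SMA minus WT, of each member after BaCl2 (edgeR) and glycerol (limma on log2 of value + 1), with bars of 1 SE; the dotted lines are the median fold changes of the 22 macrophage and monocyte markers (0.93 and 1.01). Acod1 (1.87), Il1a (1.67) and Nlrp3 (1.52) after BaCl2 are plotted above that line, and Il1r1 lies slightly below 0 after both injuries.

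The ratios between members given above take no account of gene length. Levels of the members were therefore also ranked per kilobase of exon, within each injury and in the WT libraries. After BaCl2 Il1r1 was first at 142 ± 8.84 CPM per kb (SD, n = 3), followed by Il1b at 22.4 ± 7.75, Nlrp3 at 7.62 ± 1.10 and Il1rn at 6.96 ± 1.92. The ranges of Nlrp3 and Il1rn overlapped, as did those of Il1rn with Il18 (5.59 ± 0.599) and Il18 with Casp1 (5.50 ± 0.291). Il1r2 followed at 2.61 ± 0.193, and Acod1 (1.26 ± 0.0682), Il1a (1.05 ± 0.172) and Pycard (0.974 ± 0.0811) were the lowest, each overlapping its neighbour. In the SMA libraries Il1a was at 3.32 ± 0.506 and Acod1 at 4.6 ± 0.937 CPM per kb, and Nlrp3 reached 21.9 ± 4.12. Il1a and Acod1 there exceeded Pycard (1.15 ± 0.177) at its annotated length. The place of Pycard in both injuries rests on that length, 3.8 kb by joined exons and by longest transcript. Which transcript was in use was not determined, and a shorter one would raise Pycard. After glycerol Il1r1 was again first, at 8645 ± 191 normalized counts per kb in WT. Nlrp3 (699 ± 140), Il1b (690 ± 90.8), Casp1 (556 ± 62.2), Il1rn (518 ± 28.4) and Il18 (452 ± 78.9) followed, each overlapping its neighbour, and Pycard (221 ± 50.2), Acod1 (193 ± 61), Il1r2 (148 ± 16.7) and Il1a (117 ± 34.7) were the lowest, again each overlapping its neighbour. The order also depends on the transcripts counted. The longest transcript in place of joined exons was a choice made after seeing the data. With it Il1rn stood at 15.1 CPM per kb after BaCl2 and 1123 normalized counts per kb after glycerol, above Nlrp3 (7.69 and 705). After glycerol Il1b then stood at 970, also above Nlrp3, and Il1r2 at 199, above Acod1 (193). The ranges of Il1b and Nlrp3 overlapped, as did those of Il1r2 and Acod1. Il1r1, the gene for the receptor, thus stood above every ligand gene by either length. Which cells carried its transcript was not tested.

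Because macrophage transcripts were higher in the SMA libraries, each member was also set against the macrophage marker level of its own library, the mean log2 value of the 22 markers relative to WT. That level differed by 0.94 after BaCl2 and 0.91 after glycerol. In bulk libraries a larger share of macrophages and more RNA per macrophage cannot be told apart. After BaCl2, Acod1 exceeded the macrophage level by 0.82 to 1.01 in SMA and lay between -0.37 and 0.24 in WT, a difference of 0.91. Il1a exceeded it by 0.70 to 0.77 in SMA against -0.18 to 0.23 in WT (difference 0.72), and Nlrp3 by 0.51 to 0.70 against -0.05 to 0.10 (difference 0.58). For these 3 the genotypes still did not overlap. All 3 were picked in part for rises in SMA, and the same values are used here, so these gaps are descriptions. Il1b (difference 0.24) and Il1rn (0.11) overlapped once set against the macrophage level.

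After glycerol the same members lay near the macrophage level. The differences were 0.35 for Il1b, 0.27 for Il1a, -0.08 for Il1rn, -0.13 for Nlrp3 and -0.13 for Acod1, and the genotypes overlapped in all 5. Casp1 differed less than the macrophage markers after both injuries, by -0.60 after BaCl2 and -0.55 after glycerol, with no overlap. The other members, Il1r1, Il1r2, Il18 and Pycard, were also lower relative to the macrophage level (-1.12, -0.68, -1.04 and -0.71 after BaCl2, with no overlap; -1.10, -0.88, -0.46 and -0.67 after glycerol, with overlap). A gene with no genotype difference comes out lower by the subtraction alone, by 0.94 after BaCl2 and 0.91 after glycerol. These lower values and their gaps are therefore not read as a result. The share of all genes without overlap after the subtraction was not computed. The part of macrophage content in the members' differences was not tested.

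**Figure D3:**
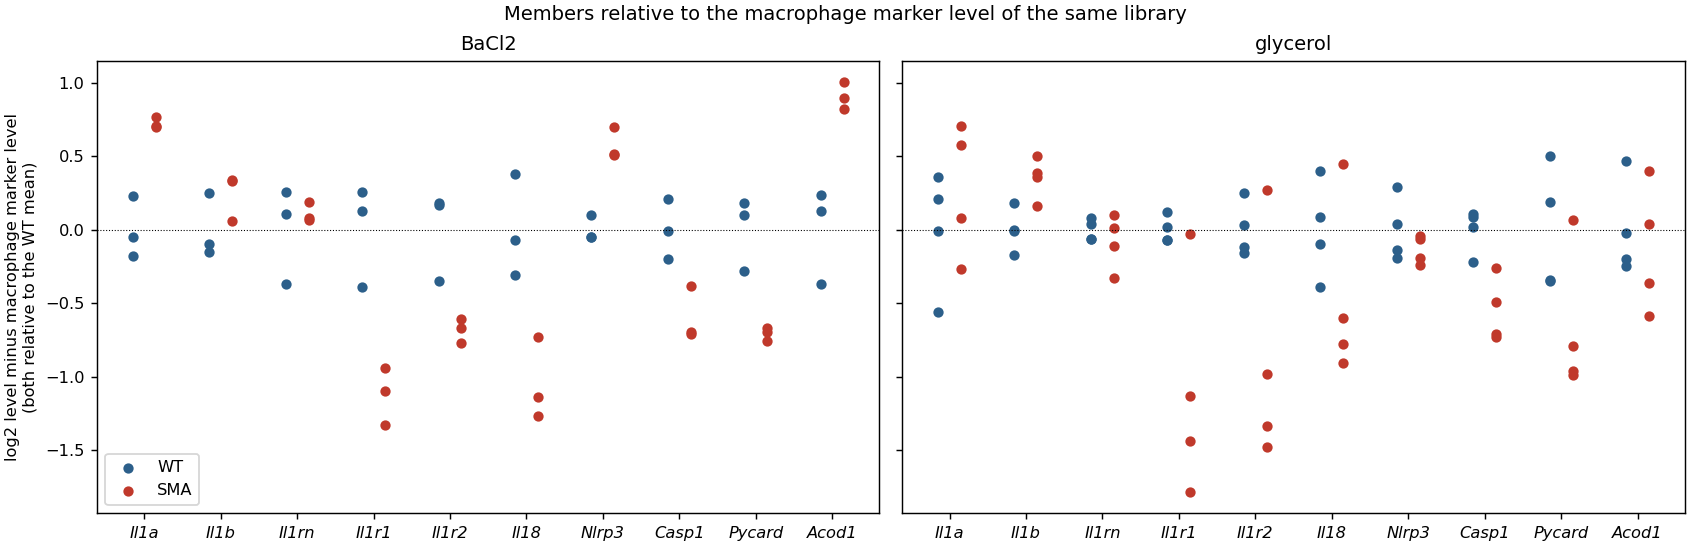
Each point is 1 library: the member's log2 level minus the macrophage marker level of the same library, both relative to the WT mean. After BaCl2 the SMA points of Acod1 (0.82 to 1.01), Il1a and Nlrp3 lie above all WT points, and after glycerol the SMA and WT points of these 3 mix.

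The members were then compared by how single libraries deviated from the mean of their own injury and genotype, which takes out the contrast that chose them. These correlations are over 14 libraries that share their group means and, within an injury, their normalization, and they are descriptions. Il1a, Il1b, Il1rn and Nlrp3 deviated together, with Pearson's r of 0.80 to 0.89 in their 6 pairs, and 8 of all 45 pairs of members had r above 0.7. The other 2 of these were Il1rn with Casp1 (0.75) and Il1r1 with Il1r2 (0.80). That count leaves out negative r: Il1r1 ran opposite to Il1a (-0.76), Il1b (-0.76), Il1rn (-0.74) and Casp1 (-0.74). These were stronger within glycerol (-0.80 to -0.95) than within BaCl2 (-0.18 to -0.53). Nlrp3 followed the macrophage marker level with r = 0.91 (Spearman's rho 0.92), and with r = 0.92 within BaCl2 and 0.91 within glycerol. Il1b (0.88), Il1rn (0.85), Casp1 (0.84) and Il1a (0.81) did likewise, and without the 2 libraries farthest from the median r was 0.82 for Nlrp3, 0.84 for Il1b, 0.76 for Il1rn, 0.61 for Il1a and 0.54 for Casp1. Il1r1 ran opposite to it (r = -0.79), but without those 2 libraries r was -0.25, so this relation rests on them. With the FAP marker level Il1r1 had r = -0.14 (-0.01 within BaCl2, -0.16 within glycerol). Acod1 followed the macrophage level less closely (r = 0.44, rho 0.46) and the neutrophil marker level more closely (r = 0.75, rho 0.73; 0.84 within BaCl2, 0.80 within glycerol; 0.60 without 2 libraries). Within BaCl2 this was not particular to Acod1: Nlrp3 followed the neutrophil level with r = 0.96, Pycard with 0.82 and Il1a with 0.77. The macrophage and neutrophil levels themselves had r = 0.83 there. Within glycerol they had 0.35, and Nlrp3 had 0.44 with the neutrophil level. Of the neutrophil list Mmp9, Csf3r and Trem1 averaged 47.2, 14.9 and 6.4 CPM in SMA and 67.4, 6.67 and 1.93 CPM in WT after BaCl2. Ly6g, Ltf, Ngp and Retnlg were near 0 or not listed, as given above. Each gene has equal weight in the marker level. Genes at low values, such as S100a8 (1.9 ± 1.45 CPM in SMA after BaCl2), thus weigh as much as the others.

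**Figure D4:**
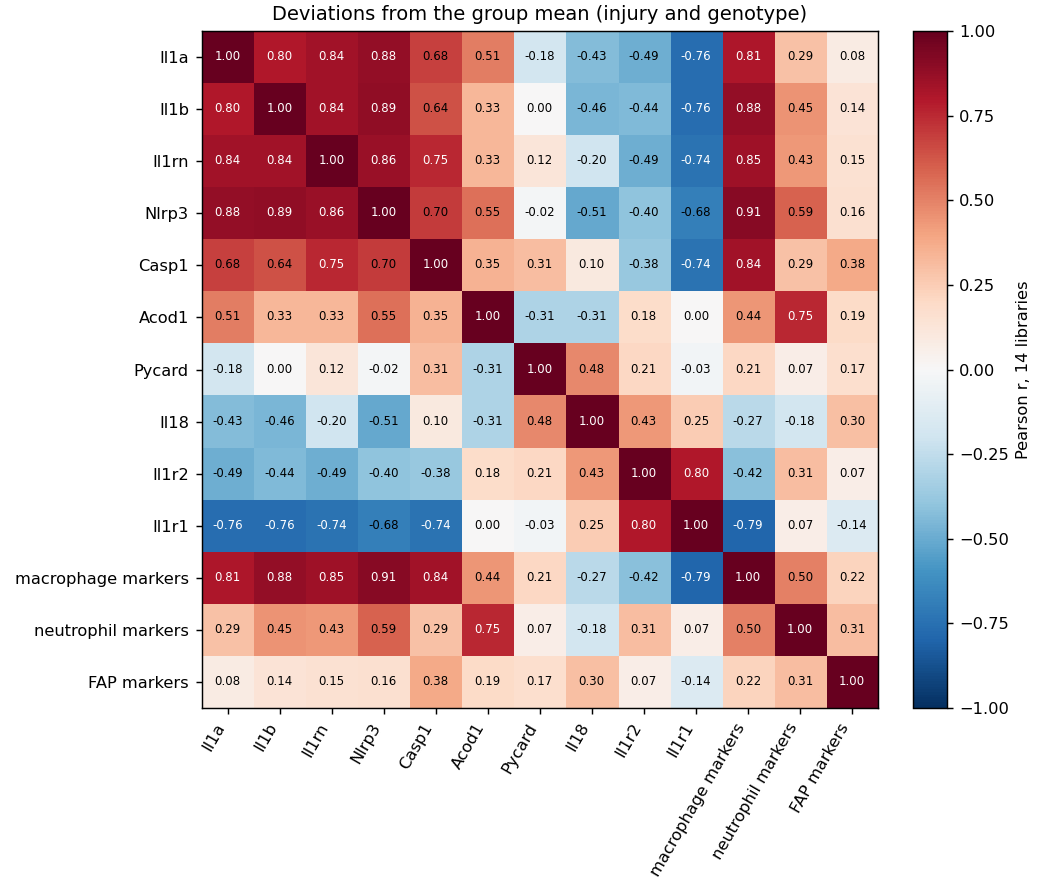
Pearson's r between members, and between members and the macrophage, neutrophil and FAP marker levels, over the deviations of 14 libraries from their group means. Il1a, Il1b, Il1rn and Nlrp3 form a block at 0.80 to 0.89, and Acod1 has its highest value with the neutrophil markers (0.75).

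The genes most alike in this measure, among 13960 in both tables, were for Nlrp3 the immunoglobulin receptor gene Fcgr3 (r = 0.98), Cdc42se2 (0.95) and Tfec (0.95). For Il1b they were Cd14, the lipopolysaccharide co-receptor of monocytes (0.96), the lactate exporter Slc16a3 (0.95) and Bcl2a1b (0.95), whose reads may be shared with its close copies. For Il1rn they were Cd83 (0.96), Fam241a (0.95) and Mid1ip1 (0.94), for Il1a Atp6v1f (0.96), Ubl3 (0.96) and Fgf11 (0.95), and for Casp1 Arhgef10l (0.96), Rab20 (0.96) and Plcl2 (0.95). Acod1 was most like Wdr27 (0.93), Bdh1 (0.90) and the neutrophil-attracting chemokine gene Cxcl2 (0.90). Il1r1 was most like Entpd6, Exd1 and Lrrc71 (0.91 each), Il1r2 like Man2a1 (0.91), Pusl1 and Sptlc2 (0.89 each), Il18 like Vax2 (0.92), Dtna (0.91) and Suox (0.90), and Pycard like Zcchc2 (0.92) and Tmem106a (0.90). All of these are the highest of 13960 correlations over 14 libraries, and the r that chance alone gives in such a search was not computed. The genes are therefore not read as partners of the members.

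The rest of the pathway was described from 5 lists of 121 genes that are not members. Other inflammasome genes were the list with the most rises. After BaCl2, 6 of 23 tested were higher, 0 lower and 17 did not pass, with a median log2 fold change of 0.67 against 0.00 over all genes. Mefv, which encodes the inflammasome sensor pyrin, was at 18.6 ± 0.314 CPM in SMA against 8.17 ± 1.91 CPM in WT and rose by 1.18 on the log2 scale (SE 0.15, n = 3 each, edgeR adjusted p = 0.00597). Naip5 (1.04, adjusted p = 0.00847), Naip2 (0.95, adjusted p = 0.00924) and Naip6 (0.88, adjusted p = 0.0223), sensors of bacterial proteins in the cytosol, rose, and reads of these closely similar Naip genes may have been shared between them. Nlrp1b, a sensor gene that has close copies of its own, rose by 0.78 (adjusted p = 0.0309). Ninj1, which ruptures the membrane of dying cells, rose by 0.67 (adjusted p = 0.0169). After glycerol, 3 of 22 were higher, 0 lower and 19 did not pass (median 0.50): Naip5 (1.23, limma adjusted p = 0.0304), Naip6 (0.88, adjusted p = 0.0381) and Txnip, an NLRP3-binding regulator of redox state (0.59, adjusted p = 0.0364). Mefv stood at 1.13 there (adjusted p = 0.0638). Other partners of this route did not pass in either injury: Gsdmd, the pore former, stood at -0.19 and 0.22, Casp4, the sensor of intracellular lipopolysaccharide, at 0.11 and 0.30, and Nek7, the NLRP3 partner kinase, at 0.07 and -0.04 after BaCl2 and glycerol. Macrophage markers rose in the same libraries, as given above, and their part in these rises was not tested.

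Other IL-1 family ligands, receptors and binding proteins showed no call: 0 of 9 tested passed after BaCl2 by edgeR (5 at an unadjusted p under 0.05, 0 by DESeq2) and 0 of 9 after glycerol by limma (4 unadjusted). Il1rap, the co-receptor that IL-1 signalling needs, stood at -0.18 and -0.24, Il33, the alarm cytokine of stromal cells, at 0.16 and -0.42, its receptor gene Il1rl1 at 0.24 and -0.04, and the IL-18 inhibitor gene Il18bp at -0.16 and 0.60.

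Signalling genes below the receptor mostly did not pass. After BaCl2, 2 of 25 were higher and 23 did not pass: Rel, an NF-kB subunit (0.38, adjusted p = 0.0143), and Irak2, a kinase of the receptor complex (0.62, adjusted p = 0.0174). After glycerol 1 of 25 was higher, Rel again (0.37, limma adjusted p = 0.0308), while Irak2 stood at 0.41 (adjusted p = 0.141). The adaptor gene Myd88 stood at -0.08 and 0.22, and Irak3, an inhibitor of the pathway, at 0.13 and -0.01.

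Genes that IL-1 induces in stromal cells split after BaCl2, where 4 of 33 were higher, 3 lower and 26 did not pass (median -0.03). Il11, a cytokine of fibroblasts, was at 54.0 ± 8.11 CPM in SMA and 34.1 ± 3.97 CPM in WT (log2 fold change 0.66, SE 0.11, n = 3 each, edgeR adjusted p = 0.0132). Zc3h12a (0.29, adjusted p = 0.029) and Tnfaip3 (0.46, adjusted p = 0.0349), both brakes on NF-kB output, and Icam1, an adhesion molecule for leukocytes (0.45, adjusted p = 0.0459), rose too. The FAP-expressed adhesion gene Vcam1 fell by 0.47 (adjusted p = 0.00779), the transcription factor gene Cebpd by 0.47 (adjusted p = 0.0175) and the cytokine gene Il6 by 0.42 (adjusted p = 0.0293). Of the FAP markers in the same libraries, 0 of 15 were higher, 4 lower (Col3a1, Dpt, Ly6a and Lum) and 11 did not pass. Cxcl1, a neutrophil chemokine, stood at -0.36, Ptgs2, the inducible cyclooxygenase, at -0.15 and the NF-kB inhibitor gene Nfkbia at -0.02. After glycerol 0 of 33 passed by limma (4 at an unadjusted p under 0.05), with Tnfaip3 at 0.66, Nfkbia at 0.35, Cxcl1 at 0.09 and Ptgs2 at -0.09.

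Around Acod1, the list of itaconate handling, its targets and the NRF2 response gave 0 of 23 after BaCl2 by edgeR (4 unadjusted) and 0 of 23 after glycerol by limma (5 unadjusted), with medians of 0.01 and 0.00. DESeq2 called 1 of them after BaCl2, Slc13a3, a carrier of dicarboxylates, which stood at 1.08 by edgeR (adjusted p = 0.127) and is named here after its value was seen. Sdha, the succinate dehydrogenase subunit, stood at 0.01 and -0.10, and Hmox1, the haem-degrading target of NRF2, at -0.15 and 0.06.

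**Figure D5:**
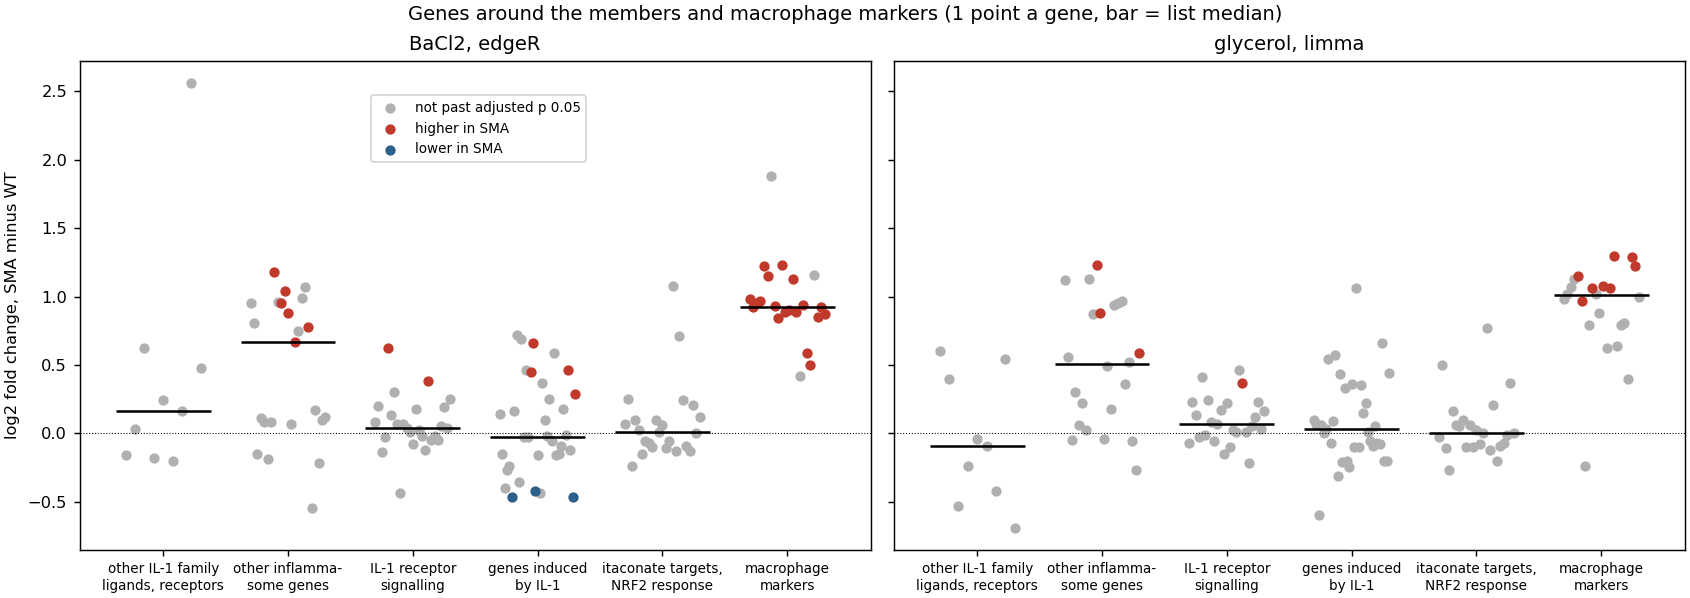
Log2 fold change, SMA minus WT, of every tested gene of the 5 pathway lists and of the macrophage and monocyte markers; colour marks an adjusted p under 0.05 and the bar is the list's median. The inflammasome list sits at medians of 0.67 and 0.50 and the macrophage markers at 0.93 and 1.01, while the other 4 lists have medians between -0.09 and 0.16.

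Over the 5 lists 12 genes were higher, 3 lower and 98 of 113 did not pass after BaCl2. Of all genes there, 2.73% were called higher and 1.56% lower. After glycerol 4 were higher, 0 lower and 108 of 112 did not pass, where 1.7% of all genes were called higher and 1.17% lower. The same shares stand beside the counts of each list above. Mefv passed with each of the 6 BaCl2 libraries left out in turn. Vcam1 and Il11 passed with 5 of 6, losing the call without WT library 3, and the other 12 calls were each lost without WT library 3 and without SMA library 2. Leaving out SMA library 2 reduced the calls in the lists after BaCl2 to 3, leaving out WT library 2 to 5 and leaving out WT library 3 to 1, and leaving out SMA library 3 raised them to 30. After glycerol 21 genes were called when SMA library 3 was left out, 5 when WT library 4 was, and 0 in each of the other 6 cases.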

How the data were processed

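RNA-seq of 14 libraries was used. After BaCl2 the deposited values are raw counts of reads per gene. The glycerol signal values are normalized counts per gene, made by the authors. The deposited p-values, log2 fold changes and the score headed stat were not used, nor were 6 columns of scaled values. Per the submitters' processing notes, fastp, Salmon, featureCounts and DESeq2 were used; their roles and versions, the aligner, build and annotation: not given in the sources used here.

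Tools were edgeR 4.0.16, DESeq2 1.42.0 and limma 3.58.1 under R 4.3.3. BaCl2 counts were scaled by TMM and filtered with filterByExpr, and SMA was tested against WT with the quasi-likelihood test in edgeR. Glycerol values were fitted as log2(value + 1) by limma with a mean-variance trend, so their fold changes understate low genes. Genes passed at a Benjamini-Hochberg adjusted p under 0.05 over all genes fitted. CPM are counts over the library total times its TMM factor (totals 97.7 M to 136 M, factors 0.953 to 1.05). Signs are SMA minus WT. Both fits were tested on simulated data. Exon lengths came from GENCODE vM21.

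The members, the 5 pathway lists and the 9 marker lists were chosen with earlier results of these data known. Named were all members, up to 5 called genes of each pathway list per comparison, 15 genes named whatever their result, 5 markers with those at 0, and the 3 genes most like each member with predicted genes skipped (1 gene that the rule names is not reported here); Nlrp1b, Icam1, Slc13a3 and some markers are named beyond that to complete a count, after their values were seen. Alternatives were scaling, test, filter, pseudocount, a replicate block and each library left out; leaving out BaCl2 SMA libraries 1 and 2 together and the longest transcript were added after seeing the data.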

Additional observations from a re-analysis of the deposited data

Results flagged for a closer look

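Member levels and ratios were checked for a library far from the rest of its group in 36 groups of 4 glycerol libraries, where chance flags about 1 group in 20. A pair of ratios was set apart. Il1b over Il1rn was 0.557 in SMA library 2, below 0.631 to 0.641 in the other 3 SMA libraries, and the gap was 0.881 of the group's range; this library still lay above every WT library. Nlrp3 over Pycard was 3.14 in SMA library 3, below 5.61 to 5.78 in the other 3, and the gap was 0.936 of the range. SMA library 3 is also the SMA library with the lowest macrophage marker level after glycerol (0.17 against 0.92 to 1.43), and the part of that level in the ratio was not tested. Groups of 3 BaCl2 libraries are too small for this check.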

How the results depend on the processing

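No called result changed direction under any alternative run. After BaCl2 the genes called numbered 863 (549 higher, 314 lower) by edgeR, 860 with DESeq2 size factors, 1692 (972 higher, 720 lower) by the DESeq2 Wald test, 1867 (1084 higher, 783 lower) with no filter on low counts and 41 to 1577 with 1 library left out. Without SMA libraries 1 and 2 together, where the lone SMA library is assumed to vary like WT, 108 were called. Calls in the pathway lists numbered 15 by edgeR, 26 by the Wald test, 33 with no filter, 1 to 30 with 1 library left out and 3 without SMA libraries 1 and 2; the members' fold changes were then 1.43 for Il1a, 1.17 for Nlrp3, 1.5 for Acod1, -0.27 for Il1r1, 0.06 for Il1r2 and -0.03 for Pycard, whose 0.24 had not passed. After glycerol 411 genes were called, 409 with log2(value + 10), 441 with a mean of at least 50, 393 with TMM factors and 0 to 1645 with 1 library left out, and pathway calls went from 4 to between 0 and 21. Same-numbered libraries deviated together little or not at all (r -0.0348 to 0.0229 after BaCl2 and -0.0894 to 0.144 after glycerol). SMA library 3 after BaCl2 and SMA library 1 after glycerol were each most like the WT library of their own number. With 3 or 4 libraries in a group, this check cannot exclude a pairing. With a replicate block 1144 genes were called after BaCl2, 20 of them in the pathway lists, and 257 after glycerol, 4 of them in the lists. The cause of these moves was not tested. At the counts of Il1a, 229 to 887 per library, counting error is small beside the spread between libraries, and the depth of the glycerol libraries is unknown.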
